A study of Arabidopsis thaliana with 8 samples.

Results

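The 10 type-A ARABIDOPSIS RESPONSE REGULATOR (ARR) genes of Arabidopsis thaliana, namely ARR3, ARR4, ARR5, ARR6, ARR7, ARR8, ARR9, ARR15, ARR16 and ARR17, were taken by their AGI codes from a deposited table of 22281 genes, and all 10 were found there. Their transcripts were compared between 4 libraries of the lsh1 lsh3 lsh4 mutant (replicates 5 to 8) and 4 libraries of wild type (replicates 1 to 4). Both genotypes are in the Col-0 strain, were grown under 16 h of light and 8 h of dark at 20 to 22 °C, and were sampled as tissue rich in inflorescence and floral meristems with young flowers no older than stage 8. The mutant carries mutations in LSH1, LSH3 and LSH4, plant-specific nuclear proteins of the ALOG family, whose alleles and number of pooled plants are not described. The series calls its replicates independent but does not state that plants differed between them, and the p-values below therefore reflect spread among these libraries that may be technical.

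Cytokinin is perceived by membrane histidine kinases, and the signal passes as a phosphate through AHP phosphotransfer proteins to nuclear type-B ARRs, which are DNA-binding transcription factors. Type-A ARRs carry the phosphate-receiving domain without the DNA-binding domain. Many of them are switched on rapidly by type-B ARRs and then dampen the same pathway, so their transcripts are widely used as a readout of cytokinin signalling. In the shoot apex the stem cell regulator WUSCHEL represses ARR5, ARR6, ARR7 and ARR15, and the auxin response factor MONOPTEROS represses ARR7 and ARR15.

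By coding sequence in RefSeq (assembly TAIR10.1) the family falls into 5 pairs, in which each gene is the nearest relative of the other. ARR3 and ARR4 share 83.2% of aligned coding bases, ARR5 and ARR6 81.4%, ARR7 and ARR15 79.0%, ARR8 and ARR9 81.3%, and ARR16 and ARR17 84.2%. The longest identical stretch within a pair was 41 bases, in ARR3 with ARR4 and in ARR8 with ARR9. No 2 members were therefore near-identical copies, although short stretches could be shared by reads.

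The promoters of ARR4, ARR7 and ARR8 are shown because these genes had the smallest p-values of the family between genotypes, ARR4 and ARR7 with lower and ARR8 with higher levels in the mutant. Each window runs 5′ to 3′ on the strand of the gene from 250 bases before to 50 bases after its annotated start, from the RefSeq genome TAIR10.1. The windows are chr1:3444311-3444610 on the minus strand for ARR4, chr1:6579265-6579564 on the minus strand for ARR7 and chr2:17221590-17221889 on the plus strand for ARR8. Capitals mark matches on either strand to the core sequences bound by type-B ARRs, AGATT (motif 1) and AGATC (motif 2).
ARR4 promoter: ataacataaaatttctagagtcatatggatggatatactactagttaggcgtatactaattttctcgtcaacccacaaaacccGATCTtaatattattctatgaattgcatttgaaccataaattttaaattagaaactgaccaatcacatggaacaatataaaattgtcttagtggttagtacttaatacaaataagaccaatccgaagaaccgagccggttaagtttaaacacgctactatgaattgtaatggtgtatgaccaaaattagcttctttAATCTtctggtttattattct
ARR7 promoter: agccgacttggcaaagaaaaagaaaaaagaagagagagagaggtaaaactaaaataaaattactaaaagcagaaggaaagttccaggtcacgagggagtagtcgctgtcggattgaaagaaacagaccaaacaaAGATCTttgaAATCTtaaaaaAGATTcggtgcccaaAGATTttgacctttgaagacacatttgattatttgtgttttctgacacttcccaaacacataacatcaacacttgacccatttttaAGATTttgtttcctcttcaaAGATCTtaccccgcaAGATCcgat
ARR8 promoter: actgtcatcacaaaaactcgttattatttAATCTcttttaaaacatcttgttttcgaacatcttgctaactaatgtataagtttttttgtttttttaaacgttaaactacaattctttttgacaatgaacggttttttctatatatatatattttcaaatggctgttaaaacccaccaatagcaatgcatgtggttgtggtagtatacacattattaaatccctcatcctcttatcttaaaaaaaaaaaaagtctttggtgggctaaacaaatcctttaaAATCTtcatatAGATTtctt
ARR7 held 4 matches to motif 1 and 5 to motif 2, where a palindrome read on both strands counts as 2 matches. ARR4 held 1 match to each motif, and ARR8 held 3 matches to motif 1 and 0 to motif 2. Over the family, 9 of 10 windows held motif 1 and 5 of 10 held motif 2, against 69.7% and 32.0% of 27437 windows of the same length at protein-coding genes. The longer sequence AGATACG, searched on both strands, was in 0 of the 10 windows and in 2.0% of all. These matches describe letters in a window, and whether they are bound was not measured.

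**Figure D1:**
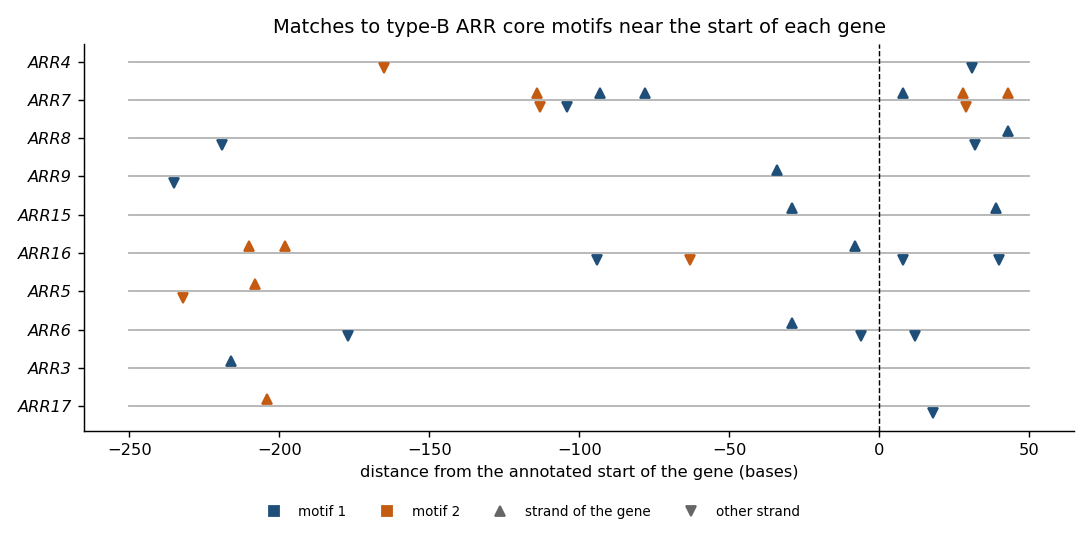
Positions of matches to motif 1 and motif 2 in the 300-base window of each of the 10 genes, as distance in bases from the annotated start (dashed line), with triangles pointing up for the strand of the gene and down for the other strand. ARR7 carries 9 matches and ARR16 carries 7, against 2 in ARR4 and 1 in ARR3.

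Levels are in FPKM, which scales fragments by gene length and library depth and so can be set side by side between genes. The deposited FPKM sums ran from 826022 to 906962 per library, and the median-of-ratios factor was the same in all 8 libraries, so the values had already been scaled to one another in that way. Absolute depth was unknown. Relative to wild type replicate 1, steps between low values gave 1.04 to 1.41 times as many reads per FPKM in the 5 other libraries where they could be settled, and were not settled in mutant replicates 5 and 8. The number of genes listed at 0 was highest in mutant replicate 8 (2461) and lowest in wild type replicate 2 (1233). LSH4 and LSH1 fell in the mutant (log2 fold changes -1.85 and -1.53, limma adjusted p = 0.00773 and 0.0423), while LSH3, with -0.30, did not pass. The meristem gene STM and the floral gene AP1 lay above 30 FPKM in every library, whereas the stem cell genes were low, WUS with 0.253 to 1.49 FPKM in the mutant and 0.726 to 1.70 FPKM in wild type, and CLV3 with 0.152 to 1.57 FPKM in the mutant and 0.435 to 1.13 FPKM in wild type.

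The genes ARR4, ARR7, ARR8 and ARR9 made up most of the family in both genotypes. Together they held 84.8% to 90.2% of the summed FPKM of the 10 genes in mutant libraries and 83.2% to 89.6% in wild-type libraries. The summed level itself was 70.1, 67.4, 69.3 and 57.2 FPKM in mutant replicates 5 to 8, against 87.3, 71.1, 65.6 and 69.0 FPKM in wild-type replicates 1 to 4. The sums overlapped, with the highest in wild type replicate 1 and the lowest in mutant replicate 8.

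The order of the 4 abundant genes differed between genotypes in their means, and the ranges of neighbours overlapped. Compared within each library, ARR9 was above ARR7 in every mutant library, and ARR7 was above ARR9 in every wild-type library. This comparison was made after the values were seen and was not tested. In the mutant the order was ARR9, ARR4, ARR8 and ARR7, with means of 16.6, 14.3, 14.2 and 12.3 FPKM and overlapping ranges between each neighbouring pair. In wild type it was ARR4, ARR7, ARR9 and ARR8, with means of 19.9, 18.5, 14.3 and 11.7 FPKM and again overlapping ranges. In both genotypes every library had these 4 genes above the next gene, ARR16 in the mutant (3.12 FPKM) and ARR15 in wild type (3.36 FPKM). ARR5, ARR6, ARR15 and ARR16 lay between 0.372 and 4.28 FPKM in all libraries, and ARR3 and ARR17 were at most 0.405 FPKM throughout.

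**Figure D2:**
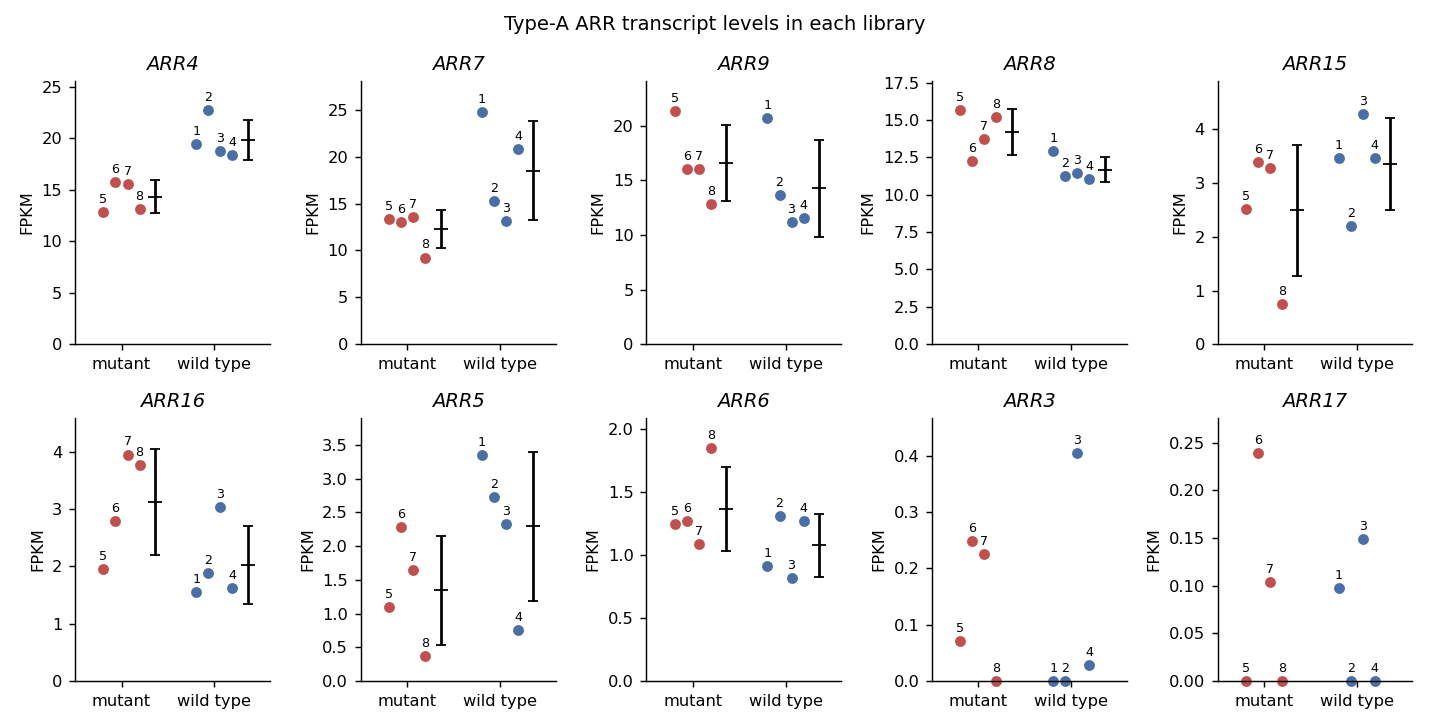
FPKM of each type-A ARR gene in the 4 mutant libraries (red, left) and the 4 wild-type libraries (blue, right), with the replicate number above each point and, for genes past the FPKM minimum, the mean ± SD (n = 4) in black. Every mutant library lies below every wild-type library for ARR4, and the libraries overlap for the other 9 genes.

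Between genotypes, 8 of the 10 genes reached the minimum mean level of 1 FPKM and entered the test, made on log2(FPKM + 1) with limma and Benjamini-Hochberg adjustment over 17706 genes. None of the 8 passed an adjusted p of 0.05, a threshold that 0.186% of all genes tested passed, 0.136% with higher and 0.0508% with lower levels in the mutant. At an unadjusted p under 0.05 there were 3 of 8, of which 2 were lower in the mutant (ARR4 and ARR7) and 1 was higher (ARR8), against 12.5% of all genes in both directions, 6.91% higher and 5.62% lower. In 1 of 8, ARR4, the genotypes did not overlap, against 7.89% of all genes, 4.15% with all mutant libraries higher and 3.74% with all lower. In the authors' deposited table of differential genes 1 of the 10 was listed, again ARR4, and that table holds 4.09% of the roughly 20096 genes its p-values correspond to, 2.41% as higher and 1.68% as lower in the mutant. The tested members had 4 positive and 4 negative log2 fold changes with a median of -0.10, beside a median of -0.01 over all genes. Fold changes on this scale understate the change of low genes.

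ARR4 (AT1G10470), whose product dampens cytokinin signalling and also binds the red-light receptor phytochrome B, had 12.8, 15.8, 15.6 and 13.1 FPKM in mutant replicates 5 to 8, against 19.5, 22.8, 18.8 and 18.4 FPKM in wild-type replicates 1 to 4. Every mutant library was below every wild-type library. The means were 14.3 ± 1.59 FPKM in the mutant and 19.9 ± 1.99 FPKM in wild type (SD, n = 4 each), a mutant level of 72.2% of wild type. The log2 fold change was -0.44 (SE 0.10, 95% interval -0.67 to -0.22), and it did not pass over all genes (limma adjusted p = 0.137). The authors' deposited table lists ARR4 with a log2 fold change of -0.47 and an adjusted p-value of 0.0147. Its close relative ARR3 (AT1G59940) had 0.0712, 0.249, 0.225 and 0 FPKM in mutant replicates 5 to 8, against 0, 0, 0.405 and 0.0281 FPKM in wild-type replicates 1 to 4. ARR3 was thus listed at 0 in libraries of both genotypes, and ARR4 was the expressed gene of this pair in all 8 libraries.

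ARR7 (AT1G19050), a target of WUSCHEL and MONOPTEROS in the shoot apex, had 13.3, 13.0, 13.6 and 9.25 FPKM in mutant replicates 5 to 8, against 24.8, 15.3, 13.1 and 20.8 FPKM in wild-type replicates 1 to 4. Mutant libraries lay lower except that wild type replicate 3 fell within their range. The log2 fold change was -0.53 (SE 0.20, 95% interval -0.98 to -0.07, limma adjusted p = 0.345). ARR15 (AT1G74890), its close relative with the same 2 known repressors, had 2.53, 3.40, 3.29 and 0.752 FPKM in mutant replicates 5 to 8, against 3.47, 2.20, 4.28 and 3.48 FPKM in wild-type replicates 1 to 4. Apart from the low mutant replicate 8, the mutant libraries lay within the wild-type range. Its log2 fold change was -0.38 (limma adjusted p = 0.627), and -0.08 without mutant replicate 8. It was positive, at 0.17, when libraries were weighted.

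ARR5 (AT3G48100), the member most often used as a cytokinin reporter, had 1.09, 2.28, 1.64 and 0.372 FPKM in mutant replicates 5 to 8, against 3.35, 2.73, 2.33 and 0.754 FPKM in wild-type replicates 1 to 4. In 3 wild-type libraries it was above all mutant libraries, and wild type replicate 4 lay among the lowest values. The log2 fold change was -0.48 with a 95% interval from -1.27 to 0.31 (limma adjusted p = 0.591). It was -0.76 without wild type replicate 4 and -0.25 without mutant replicate 8 (limma adjusted p = 0.392 and 0.784). The 2 libraries lowest in ARR5, mutant replicate 8 and wild type replicate 4, were the 2 highest in the mean level of 5 floral organ and meristem identity genes (LFY, AP1, AG, AP3 and PI), at 5.63 and 5.68 log2 units, against 3.81 to 5.12 in the other mutant libraries and 4.35 to 5.07 in the other wild-type libraries. The part of floral stage content in the ARR5 levels was not tested. In such bulk tissue, fewer cells that express a gene and less RNA per cell cannot be told apart.

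ARR6 (AT5G62920), the relative of ARR5, had 1.25, 1.27, 1.09 and 1.85 FPKM in mutant replicates 5 to 8, against 0.909, 1.31, 0.816 and 1.27 FPKM in wild-type replicates 1 to 4. Its genotypes overlapped, with a log2 fold change of 0.18 (limma adjusted p = 0.671) that was 0.09 without mutant replicate 8 and became -0.03 when libraries were weighted. The annotated ARR6 gene overlaps 348 bases of AT5G62910 on the other strand. That gene was listed at 14.0 to 17.8 FPKM, and whether the counting used strand is not given in the sources used here, so the ARR6 values are uncertain.

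ARR8 (AT2G41310) and ARR9 (AT3G57040), type-A members that respond weakly to applied cytokinin, had higher means in the mutant. ARR8 had 15.7, 12.3, 13.7 and 15.2 FPKM in mutant replicates 5 to 8, against 12.9, 11.3, 11.5 and 11.1 FPKM in wild-type replicates 1 to 4. In 3 mutant libraries it was above all wild-type libraries, and mutant replicate 6 was below wild type replicate 1. The log2 fold change was 0.26 (SE 0.09, 95% interval 0.04 to 0.47, limma adjusted p = 0.316). ARR9 had 21.3, 16.0, 16.1 and 12.9 FPKM in mutant replicates 5 to 8, against 20.7, 13.7, 11.2 and 11.5 FPKM in wild-type replicates 1 to 4. Each genotype had 1 library above 20 FPKM, and the log2 fold change of ARR9 was 0.22 (limma adjusted p = 0.686). With 1 library left out it ran from 0.10 without mutant replicate 5 to 0.41 without wild type replicate 1, and it was 0.13 and 0.14 without wild type replicates 3 and 4. Both genes overlap an annotated non-coding RNA on the other strand, by 299 bases in ARR8 and 231 bases in ARR9, so that reads of the partner could be included.

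ARR16 (AT2G40670), the expressed gene of the last pair, had 1.96, 2.80, 3.96 and 3.77 FPKM in mutant replicates 5 to 8, against 1.56, 1.89, 3.03 and 1.62 FPKM in wild-type replicates 1 to 4. Its mutant mean was higher with overlapping libraries (log2 fold change 0.44, 95% interval -0.05 to 0.93, limma adjusted p = 0.442). ARR17 (AT3G56380) was listed at 0 in mutant replicates 5 and 8 and in wild-type replicates 2 and 4, and reached 0.239 FPKM in the mutant and 0.149 FPKM in wild type.

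**Figure D3:**
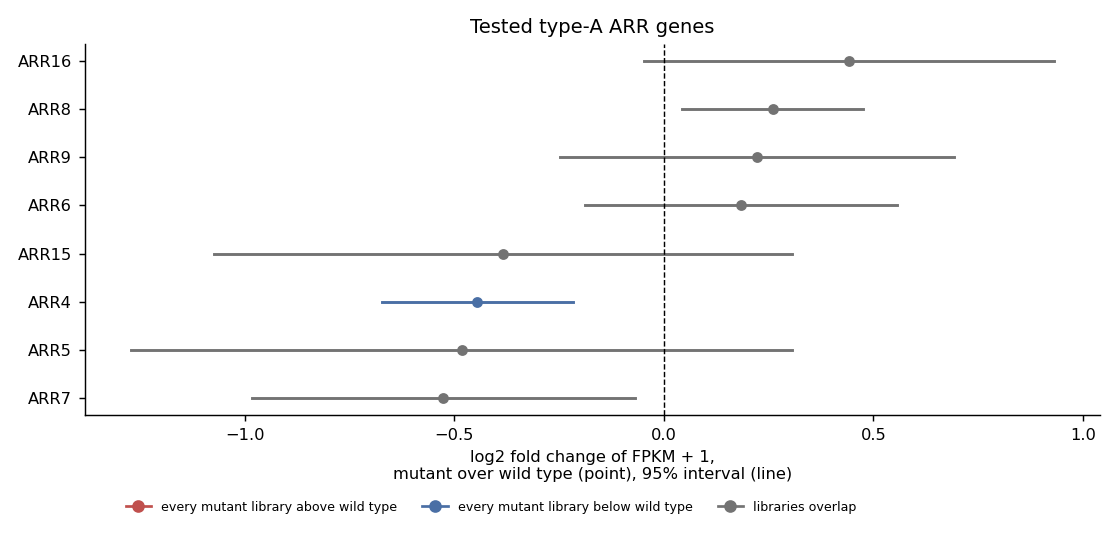
Log2 fold change of FPKM + 1, mutant over wild type, for the 8 tested type-A ARR genes (points) with 95% intervals from limma (lines). The intervals of ARR4, ARR7 and ARR8 leave out 0, and the values run from -0.53 in ARR7 to 0.44 in ARR16.

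Within the family, the shares of ARR7 and ARR8 differed between genotypes without overlap, whereas the summed level overlapped. ARR7 held 19.0%, 19.4%, 19.6% and 16.2% of the family's summed FPKM in mutant replicates 5 to 8, against 28.4%, 21.5%, 20.0% and 30.2% in wild-type replicates 1 to 4. ARR8 held 22.4%, 18.2%, 19.8% and 26.6% in mutant replicates 5 to 8, against 14.8%, 15.9%, 17.5% and 16.0% in wild-type replicates 1 to 4. For these 2 shares the genotypes did not overlap, ARR7 being lower and ARR8 higher in the mutant, while the shares of ARR4 and ARR9 overlapped. The ARR7 shares lay close, at most 19.6% in the mutant and at least 20.0% in wild type. Shares of 1 sum depend on each other, so a lower share of 1 gene raises those of others. In FPKM both genes overlapped between genotypes, and no background over all genes exists for shares. The summed FPKM of ARR4 and ARR7 divided by that of ARR8 and ARR9 was 0.707, 1.02, 0.981 and 0.796 in mutant replicates 5 to 8, against 1.31, 1.52, 1.41 and 1.74 in wild-type replicates 1 to 4. This ratio was formed after the values were seen and is given without a test.

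**Figure D4:**
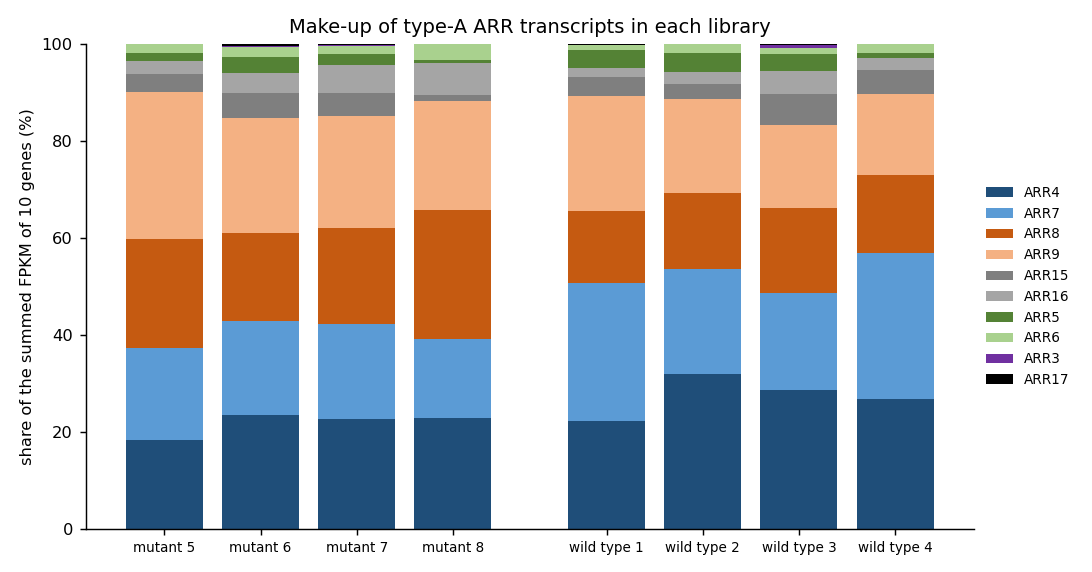
Share of each type-A ARR gene in the summed FPKM of the 10 genes, in percent, for the 4 mutant libraries (left) and the 4 wild-type libraries (right). ARR4 with ARR7 (blue) and ARR8 with ARR9 (orange) were grouped after the values were seen, and their separation was not tested. So grouped, the blue segments are shorter and the orange segments longer in every mutant library than in any wild-type library. The 4 genes together stay between 83.2% and 90.2%.

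Within the sequence pairs, the log2 ratio of FPKM + 1 of the 2 genes was compared between genotypes. It was tested in the 3 of 5 pairs in which both genes passed the FPKM minimum, by a 2-sided exact permutation test over the 8 libraries, whose smallest possible p is 0.0286. Adjusted over 3 pairs, 1 pair alone could reach no less than 0.0857, so a difference in a single pair could not pass 0.05 and the p-values do not show that the ratios were alike. ARR6 over ARR5 averaged 0.07 ± 0.71 log2 units in the mutant and -0.60 ± 0.68 in wild type (SD, n = 4 each; exact p = 0.229, 0.686 adjusted over 3 pairs). That difference of 0.67 was 0.34 without mutant replicate 8 and 0.99 without wild type replicate 4. ARR7 over ARR15 averaged 2.003 ± 0.39 in the mutant and 2.14 ± 0.49 in wild type (exact p = 0.686, adjusted 0.857). ARR8 over ARR9 averaged -0.19 ± 0.29 in the mutant and -0.23 ± 0.30 in wild type (exact p = 0.857, adjusted 0.857).

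Pairs of members varied in the same and in opposite directions from library to library. Of the 28 pairs of tested members, 13 had a positive and 15 a negative Pearson r of log2(FPKM + 1) over the 8 libraries, from -0.89 for ARR6 and ARR15 to 0.68 for ARR4 and ARR5. These values are descriptions over libraries that differ in genotype and tissue content. The mean standardised level of the 8 tested members was highest in wild type replicate 1 and lowest in mutant replicate 8. Members followed this mean unevenly, with r from -0.58 for ARR6 to 0.79 for ARR5, and negative also for ARR8 and ARR16. The 5 genes with a symbol most like that mean were PEN3 (AT3G50110, r = 0.98), HSP81-2 (AT5G56030, 0.98), DAG2 (AT2G46590, 0.97), RANBP1 (AT5G58590, 0.96) and NHX4 (AT3G06370, 0.96), over 8 libraries. Their log2 fold changes lay between -0.13 and -0.0025. These genes were picked as the highest r among all tested genes with a symbol, so their high r partly reflects that choice.

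Early stress genes and green tissue genes also differed between libraries. The mean level of 12 early stress and touch genes was 2.42, 2.22, 2.17 and 1.84 log2 units in mutant replicates 5 to 8, against 5.54, 3.96, 3.44 and 2.25 in wild-type replicates 1 to 4. ARR5 had the same order of libraries within wild type, but not within the mutant. The summed level of 8 photosynthesis genes was 10947 to 14456 FPKM in the mutant and 7255 to 12530 FPKM in wild type. Median log2 fold changes were 0.40 for these photosynthesis genes, 0.31 for 6 vascular genes, -0.22 for 3 meristem genes and -0.20 for the 5 floral genes. None of these genes passed, and the mean levels of the vascular, meristem and floral lists overlapped between genotypes. The part of any of these lists in the type-A ARR values was not tested. Without wild type replicates 1 and 2, the highest in the stress genes, the log2 fold changes were -0.36 for ARR4, -0.42 for ARR7, -0.11 for ARR5 and -0.57 for ARR15. They were 0.31 for ARR8, 0.49 for ARR9, 0.21 for ARR6 and 0.31 for ARR16, and none of the 8 passed (limma adjusted p 0.593 to 0.970).

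Around the type-A genes, 60 other genes of cytokinin perception, signalling, synthesis, breakdown and transport were listed, of which 50 were in the table and 39 were tested. None passed the test over all genes, against the 0.186% given above. With library weights 12 of the 39 passed, 7 higher and 5 lower in the mutant, in a fit that called 13.1% of all genes. At an unadjusted p under 0.05, 9 were higher and 4 lower in the mutant, against 6.91% and 5.62% of all genes. Every mutant library was above every wild-type library in 8 of the 39 and below in 1, against 4.15% and 3.74% of all genes. The authors' deposited table lists 5 of the 60, with 3 higher and 2 lower in the mutant, beside the 4.09% of genes that it holds overall (2.41% higher and 1.68% lower).

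Among the receptors, AHK3 averaged 26.8 ± 3.89 FPKM in the mutant and 21.8 ± 1.21 FPKM in wild type (SD, n = 4 each), and AHK4 averaged 13.4 ± 1.87 FPKM in the mutant and 17.3 ± 2.16 FPKM in wild type (limma log2 fold changes 0.28 and -0.34, adjusted p = 0.321 and 0.294). AHK3 and AHK4 thus had values in opposite directions, without passing, and the remaining receptor AHK2 had 0.11 (limma adjusted p = 0.708). Among the phosphotransfer proteins AHP1 had a log2 fold change of 0.44 (0.26 without mutant replicate 5), and AHP6, an inhibitory member that lacks the phosphate-accepting residue, had -0.63 (3.14 ± 0.81 FPKM in the mutant and 5.49 ± 1.79 FPKM in wild type, limma adjusted p = 0.277). Of the 7 tested type-B ARR genes, the abundant ARR1 had 0.19 and the low ARR11 had 0.46. The cytokinin response factor genes CRF1 and CRF6, of a transcription factor group partly induced by cytokinin, had 0.44 and 0.27.

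The largest fold changes among the named pathway genes were in KMD genes, whose F-box products direct the breakdown of type-B ARR proteins. KMD3 (AT2G44130) had 23.5, 9.92, 11.7 and 17.5 FPKM in mutant replicates 5 to 8, against 5.58, 6.06, 5.81 and 3.94 FPKM in wild-type replicates 1 to 4, and KMD4 (AT3G59940) had 31.1, 19.0, 16.3 and 28.0 FPKM in mutant replicates 5 to 8, against 5.09, 9.89, 13.7 and 13.1 FPKM in wild-type replicates 1 to 4. In both genes every mutant library was above every wild-type library. Their log2 fold changes were 1.33 and 1.14 (limma adjusted p = 0.0948 and 0.1895), and the authors' deposited table lists them with 1.55 and 1.18 (adjusted p-values of 1.17e-05 and 0.00807). All 4 KMD genes had positive values, with a median of 1.12.

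Genes of cytokinin supply had values in both directions. LOG4 (AT3G53450), which encodes an enzyme that releases active cytokinin, averaged 2.56 ± 0.29 FPKM in the mutant and 4.58 ± 0.60 FPKM in wild type (SD, n = 4 each; limma log2 fold change -0.65, adjusted p = 0.0948), with no overlap. LOG1 had 0.36. CKX6, encoding a cytokinin-degrading oxidase, averaged 14.2 ± 1.69 FPKM in the mutant and 23.6 ± 6.11 FPKM in wild type (limma log2 fold change -0.66, adjusted p = 0.221), and passed without wild type replicate 3 (-0.86, adjusted p = 0.0332), while CKX5 had -0.25. ABCG14 (AT1G31770), the exporter that carries cytokinin from root to shoot, averaged 23.8 ± 1.76 FPKM in the mutant and 16.4 ± 1.02 FPKM in wild type (limma log2 fold change 0.51, adjusted p = 0.0569), again with no overlap. LOG4, CKX6 and ABCG14 are in the authors' deposited table, with -0.84, -0.73 and 0.54 (adjusted p-values of 0.0116, 0.0154 and 3.03e-06). PUP14, a cytokinin uptake carrier, had -0.78 with 162 FPKM in wild type replicate 1 against 34.3 to 52.4 FPKM in the other wild-type libraries, and its log2 fold change was -0.32 without that library. The synthesis genes IPT2 and IPT9, the 2 tested of 11, had 0.09 and -0.06. The homeobox gene STM, which promotes cytokinin synthesis in the meristem, averaged 66.7 ± 3.25 FPKM in the mutant and 87.0 ± 9.41 FPKM in wild type (limma log2 fold change -0.37, adjusted p = 0.145), with no overlap. STM is also in the authors' deposited table, with -0.38 (adjusted p-value of 0.00745). MONOPTEROS had a limma log2 fold change of -0.06.

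**Figure D5:**
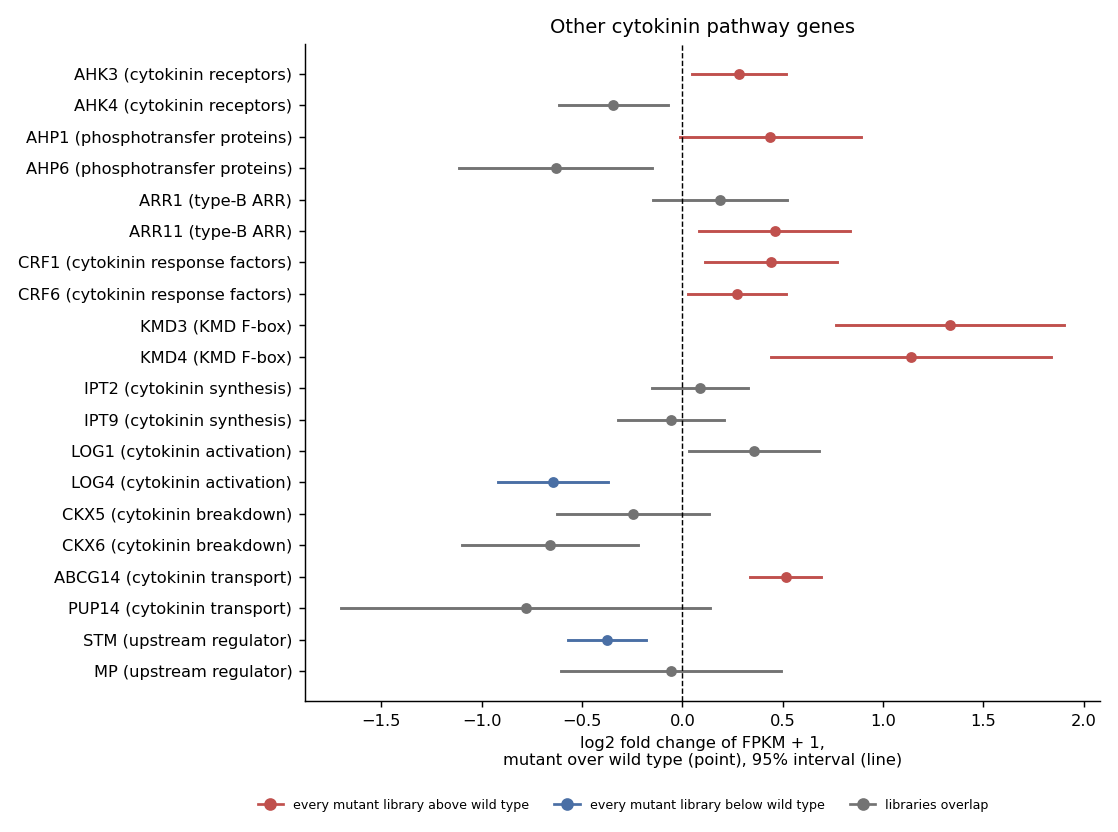
Log2 fold change of FPKM + 1, mutant over wild type, with 95% limma intervals, for the named genes of each cytokinin pathway list and for STM and MP. KMD3 and KMD4 have the largest values (1.33 and 1.14), and LOG4, CKX6, AHP6 and PUP14 lie between -0.63 and -0.78. Without wild type replicate 1, KMD4 is at 0.86 and PUP14 at -0.32.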

How the data were processed

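Poly-A RNA libraries were made by a commercial provider, per the labels. The main deposited table holds FPKM values, 1 for each gene in each library. RSEM, DESeq2 and the genome build TAIR10 are named, without versions, per the submitters' processing notes. The aligner is not given in the sources used here. A second deposited table, of 822 genes, gives the authors' log2 fold change, p-value and adjusted p-value, per the file headers. FPKM removes depth, so no count model was fitted and no counting interval is given.

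Here limma 3.58.1 (R 4.3.3) was applied to log2(FPKM + 1) of the 17706 genes whose mean reached 1 FPKM (mutant against wild type, mean-variance trend, 2-sided, Benjamini-Hochberg threshold 0.05). The fit was tested on simulated data, with independent noise of equal spread in every library. Of planted changes, it recovered 77.4% at 1 log2 unit and 95.5% at 2 log2 units, and 5.39% of calls were false. Changes as small as those of the members were not simulated, nor were differences in spread between libraries. Pair ratios used exact permutation tests in scipy 1.17.1. Symbols, gene models and sequences came from RefSeq TAIR10.1, and the authors' files hold no coordinates. Coding sequences were aligned with Biopython 1.88. The members, the pathway lists and the tests were chosen with earlier results of these data known. Named pathway genes are, per list, those called or otherwise the 2 with the smallest p. Alternatives were other pseudocounts, filters, scalings, moderation, library weights and left-out libraries.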

Additional observations from a re-analysis of the deposited data

Results flagged for a closer look

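Of 66 sets of 4 libraries of 1 gene and genotype that were checked for a value standing apart, 5 held one, where chance gives about 1 in 20. Among type-A ARR genes these were ARR7, with 9.25 FPKM in mutant replicate 8 (13.0 to 13.6 in its 3 companions), and ARR3, with 0.405 FPKM in wild type replicate 3 (0 to 0.0281 in its 3 companions). The others were AHP1 (2.997 FPKM in mutant replicate 5, against 1.34 to 1.49), IPT2 (7.98 FPKM in mutant replicate 8, against 10.3 to 10.7) and PUP14 (162 FPKM in wild type replicate 1, against 34.3 to 52.4).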

How the results depend on the processing

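No paired analysis was possible because the genotypes share no replicate number. The count of type-A ARR genes called was 0 in each direction under 17 of 18 alternatives. With library weights it was 2 higher (ARR8, 0.25, limma adjusted p = 0.0417, and ARR16, 0.63, adjusted p = 0.0368) and 1 lower (ARR4, -0.48, adjusted p = 0.0131), in a fit that called 13.1% of all genes and gave weights of 4.55 to wild type replicate 2 and 4.38 to mutant replicate 7, against at most 0.96 for the others. There ARR6 (-0.032) and ARR15 (0.17) changed sign, and the median of the members moved to 0.070. It moved to 0.048 without wild type replicates 1 and 2, and with 1 library left out it ran from -0.15 to 0.0048. ARR4 stayed negative under all 18 alternatives (-0.49 to -0.36, limma adjusted p 0.0131 to 0.593), as did ARR7 (-0.67 to -0.28), and ARR8 stayed positive (0.21 to 0.32). ARR5 (-0.78 to -0.11), ARR9 (0.10 to 0.49) and ARR16 (0.31 to 0.63) also kept their sign wherever they were tested. The difference in the ratio of ARR7 over ARR15 was 0.013 with a pseudocount of 0.1 and 0.15 without wild type replicates 1 and 2, and with 1 library left out it ran from -0.38 to -0.01. For ARR6 over ARR5 it was 1.09 with a pseudocount of 0.1 and 0.32 without wild type replicates 1 and 2. That of ARR8 over ARR9 was -0.18 without wild type replicates 1 and 2, and with 1 library left out it ran from -0.10 to 0.12. With library weights the pathway genes that passed were ABCG14, AHK3, AHK4, AHP6, CKX5, CKX6, CRF1, KMD3, KMD4, LOG1, LOG4 and LOG8, as did STM (limma adjusted p = 0.0384), and under the other 17 alternatives 0 passed except CKX6 without wild type replicate 3. PUP14 was -0.21 without wild type replicates 1 and 2. Among other genes, IPT9 was 0.15 with library weights and -0.13 to 0.019 with 1 library left out, and MP -0.19 to 0.13. With 1 library left out, limma adjusted p ran from 0.00935 to 0.0626 for LSH4, which missed the threshold without wild type replicate 2, and from 0.0351 to 0.158 for LSH1, which passed in 2 of 8 fits. Median-of-ratios scaling left the values almost unchanged, since all libraries share 1 factor. Over all genes limma called 24 higher and 9 lower. Without wild type replicate 2 it called 0 (843 higher, 582 lower by unadjusted p under 0.05), without wild type replicate 3 79 higher and 25 lower, and without any other single library 2 to 5 in each direction. ARR3 and ARR17 were at most 0.405 FPKM and were listed at 0 in libraries of both genotypes. With no filter they had log2 fold changes of 0.05 and 0.03.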
